A study of Mus musculus with 4 samples.

Results

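The 6 genes Ucn3, Slc30a8, Gjd2, Papss2, Syt13 and Prlr, which mark mature beta cells, were followed in mouse pancreatic islets labelled Rb-deficient, in which the retinoblastoma gene Rb1 was targeted. The array files give an accession for each probe, and 9 of the 56605 non-control probes had an accession that a RefSeq table assigns to one of these 6 genes. All 9 probes were well above background on all 4 arrays, so all 6 genes passed the filter on dim signal and were among the 26379 genes tested. Ucn3, Slc30a8, Gjd2 and Syt13 had 1 probe each, Papss2 had 2 and Prlr had 3.

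The Rb-deficient group comprised islets of 2 mice with the genotype Pdx1-Cre:Rbf/f, in which Cre recombinase under the Pdx1 promoter acts on floxed Rb alleles throughout the pancreatic lineage, so exocrine cells and the other endocrine cells are targeted as well as beta cells. The group labelled wild type comprised islets of 2 mice that carried Pdx1-Cre alone, so both groups shared the transgene. Each group was read from the design text as 2 individual mice. Each islet RNA was amplified, labelled with the dye Cy3 and hybridised to 1 single-colour Agilent array. Age, sex and strain of the mice are not given in the sources used here.

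Beta cells of newborn mice already make insulin, but they acquire their regulated response to glucose only over the following weeks. Maturation brings genes that act at different steps of this response. Urocortin 3, a peptide of the corticotropin-releasing factor family, is stored with insulin and acts on Crhr2, a receptor that in mouse islets is found on delta cells, where it promotes somatostatin release. ZnT8, the product of Slc30a8, moves zinc into the insulin granule, where insulin crystallises with it. Connexin 36, the product of Gjd2, forms the gap junctions that couple neighbouring beta cells electrically. The prolactin receptor, encoded by Prlr, signals through the kinase Jak2 and the transcription factor Stat5 and takes part in the expansion of beta cells in pregnancy.

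For none of the 6 genes did the difference between Rb-deficient and wild type islets pass the test against the spread between mice. With the array's 75th percentile as the scale, 5 of 6 had a higher mean in Rb-deficient islets, Syt13 being the exception, and with scaling to the array median all 6 did. Median scaling added the same amount to every gene's difference and moved the median over all genes from -0.07 to 0.37. More genes of any kind therefore had a higher mean with it, here and in the lists below. The largest mean differences were 1.36-fold for Prlr and 1.32-fold for Gjd2. The adjusted p values of the 6 (limma, Benjamini-Hochberg over every gene tested) lay between 0.863 and 0.900, and no member had an unadjusted p under 0.05. Over all genes limma called 0%, and 1493 genes, or 5.66%, had an unadjusted p under 0.05. The median difference of the 6 genes was 0.27 on the log2 scale, against -0.07 over all genes tested, of which 41.9% had a higher mean in Rb-deficient islets.

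Both Rb-deficient arrays lay above both wild type arrays for 3 of the 6 genes, Slc30a8, Gjd2 and Papss2, where 15.3% of all genes did so. Both lay below for 1 of the 6, Syt13, where 20.7% of all genes did so. For Ucn3 and Prlr the groups overlapped. By array, the median of the 6 genes stood 0.30 and 0.11 above the wild type mean on Rb-deficient arrays 1 and 2, against -0.08 and 0.08 on wild type arrays 1 and 2.

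**Figure D1:**
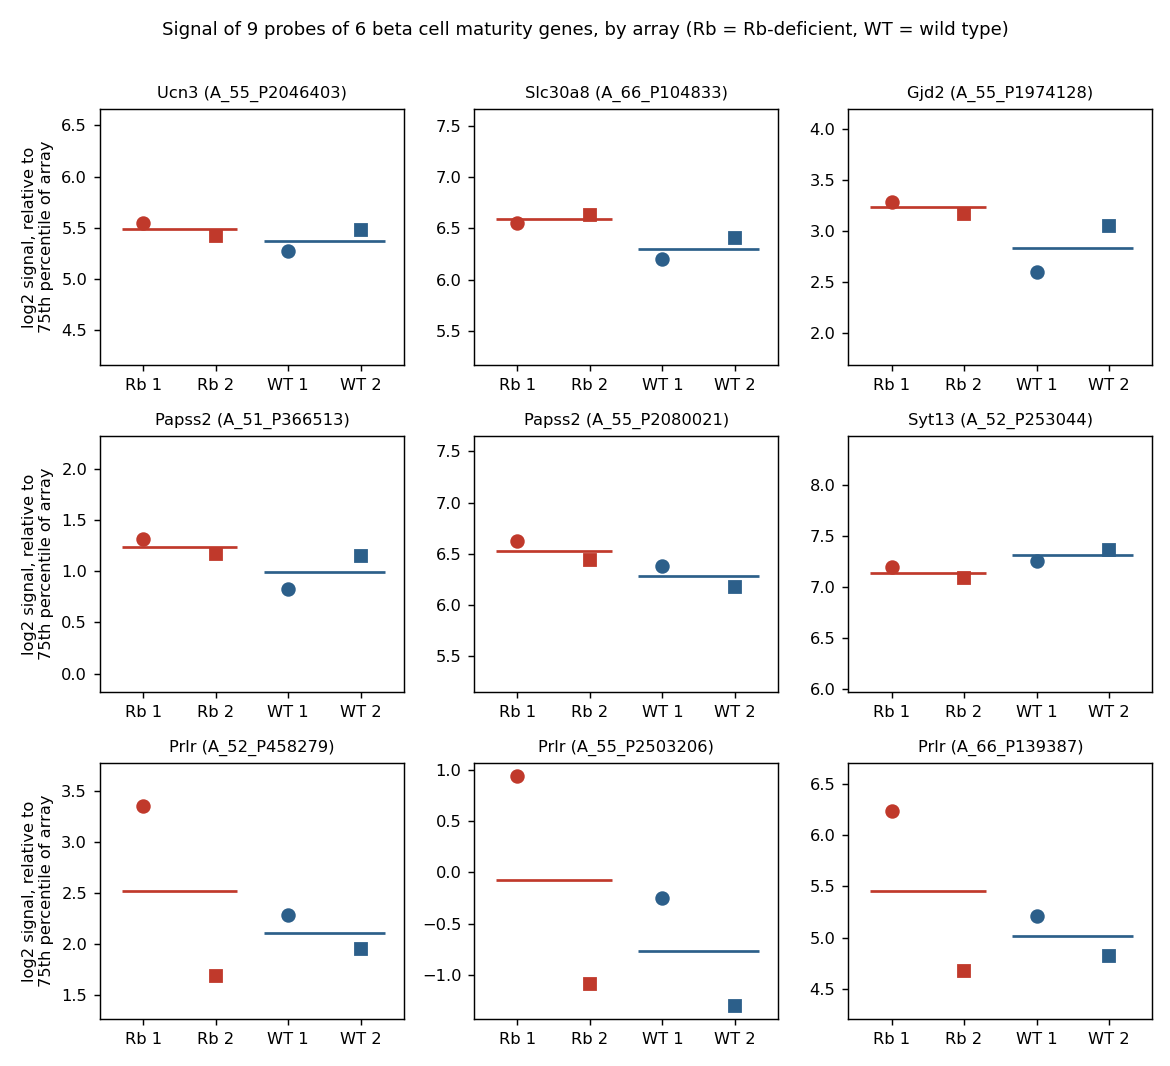
Each panel plots 1 probe, with the log2 signal relative to the array's 75th percentile on the vertical axis and the 4 arrays on the horizontal axis, Rb-deficient in red and wild type in blue. Horizontal lines are group means (n = 2 each) and all panels span the same height. The 3 Prlr probes share a pattern with Rb-deficient array 1 highest, while the arrays of the other genes lie within 0.68 of each other.

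The arrays and groups also differed in other signals. Well above background were 59.9% and 59.0% of probes on Rb-deficient arrays 1 and 2, against 76.5% and 59.4% on wild type arrays 1 and 2. Rb1 itself, measured by its brighter probe, was at -0.48 and -0.90 in Rb-deficient islets and at 0.28 and 0.86 in wild type islets on the log2 scale (limma, Benjamini-Hochberg adjusted p 0.735). Where this probe sits relative to the floxed exon is not given in the sources used here. Xist was well above background on both Rb-deficient arrays and on wild type array 2, and Y-linked transcripts were so only on wild type array 1, so the groups were not balanced for sex-linked signal. All 20 acinar cell markers had a lower mean in Rb-deficient islets, although 5 of the 20 had a higher one with scaling to the array median. Of 19 macrophage markers tested 18 had a higher mean, and 19 did with median scaling. Fcgr1 among them was not well above background on either wild type array and passed the filter only through the Rb-deficient arrays. With signal required on all arrays, 17 of 18 had a higher mean. The median difference of the ductal list was -0.09. That of the endothelial list was 0.18, with 0.01 and 0.38 on Rb-deficient arrays 1 and 2. The stromal list had -0.57 and 0.57 on these arrays, and its median of -0.06 was 0.57 without Rb-deficient array 1. The summed linear signal of the acinar list was 8860 and 5180 in Rb-deficient and 12600 and 10100 in wild type islets, in units of the array's 75th percentile. That of the macrophage list was 68.8 and 82.4 in Rb-deficient and 58.0 and 61.6 in wild type islets. The part of these differences in the values of the 6 genes was not tested. In whole islets, fewer cells of a type and less RNA per cell cannot be told apart.

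Ucn3 on chromosome 13 had log2 signals of 5.55 and 5.42 in Rb-deficient islets, against 5.27 and 5.48 in wild type islets. The groups overlapped, with wild type array 2 between the 2 Rb-deficient arrays. The means were 5.49 ± 0.09 in Rb-deficient and 5.37 ± 0.15 in wild type islets (SD, n = 2 each), a 1.08-fold higher mean. The 95% interval of limma ran from 0.74-fold to 1.57-fold. Changes larger than these bounds therefore lay outside the interval, and smaller ones could not be resolved with 2 mice a group. Without wild type array 1 the log2 difference of Ucn3 was 0.01.

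The 300 bases around the annotated start of Ucn3 are shown because this gene is a widely used late marker of mouse beta cells, and those of Prlr because its values varied most between mice and the RefSeq table holds 3 starts for it. They are read 5′ to 3′ on the gene's strand from RefSeq on GRCm38.p6. Capitals mark 2 motifs that were chosen after the expression values were known, CAGATG, an E-box bound by NeuroD1, and TTCNNNGAA, the element bound by Stat5. Both strands were searched, and the marked motifs do not overlap.
Ucn3, chr13:3945300-3945599, minus strand: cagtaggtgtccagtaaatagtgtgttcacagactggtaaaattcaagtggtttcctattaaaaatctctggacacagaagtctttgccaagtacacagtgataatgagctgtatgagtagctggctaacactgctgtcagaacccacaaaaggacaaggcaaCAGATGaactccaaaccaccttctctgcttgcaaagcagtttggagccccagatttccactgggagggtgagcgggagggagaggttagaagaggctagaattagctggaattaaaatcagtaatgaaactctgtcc
Prlr start 1, chr15:10176988-10177287, plus strand: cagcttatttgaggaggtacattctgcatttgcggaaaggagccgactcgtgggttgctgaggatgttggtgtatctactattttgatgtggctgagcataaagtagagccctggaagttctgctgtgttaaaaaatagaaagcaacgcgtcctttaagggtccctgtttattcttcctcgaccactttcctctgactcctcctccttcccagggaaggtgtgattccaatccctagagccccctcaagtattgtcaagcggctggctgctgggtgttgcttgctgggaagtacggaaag
Prlr start 2, chr15:10223656-10223955, plus strand: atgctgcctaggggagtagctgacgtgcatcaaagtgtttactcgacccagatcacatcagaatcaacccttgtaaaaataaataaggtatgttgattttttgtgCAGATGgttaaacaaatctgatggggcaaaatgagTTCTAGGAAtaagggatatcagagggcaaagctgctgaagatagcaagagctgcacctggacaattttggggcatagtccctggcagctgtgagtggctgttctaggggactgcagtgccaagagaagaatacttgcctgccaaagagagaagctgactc
Prlr start 3, chr15:10293401-10293700, plus strand: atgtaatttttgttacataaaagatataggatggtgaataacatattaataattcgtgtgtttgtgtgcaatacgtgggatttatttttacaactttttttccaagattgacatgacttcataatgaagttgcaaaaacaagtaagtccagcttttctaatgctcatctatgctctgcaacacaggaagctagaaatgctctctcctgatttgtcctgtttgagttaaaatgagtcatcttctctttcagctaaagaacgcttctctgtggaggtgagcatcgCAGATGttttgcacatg

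The Stat5 element occurred once, at position -110 of the second Prlr start, counted so that -1 is the base before the start and 1 the first transcribed base, and 8.3% of 32851 promoter windows of the same length hold it. The E-box began at position -87 of Ucn3, at -145 of the second Prlr start and at 34 of the third, and 17.2% of all windows hold it. The E2F motif, searched as TTTCCCGC, TTTCGCGC, TTTGCCGC and TTTGGCGC because Rb binds E2F factors, was in none of the 7 windows of Ucn3, Gjd2, Papss2 and Prlr and in 2.3% of all windows. The core TGCTGAC of the Maf recognition element was in none of the 7 and in 4.7% of all windows. A match of letters is not a bound site, and their lack says nothing of a factor outside these windows. The window of Gjd2 was rich in CG pairs, with 41, where that of Ucn3 had 1 and the median window 7. The array does not tell from which Prlr start a transcript came.

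The partners of urocortin 3 were described from a list of 11 genes of the corticotropin-releasing factor and somatostatin systems, of which 6 were tested, 2 with a higher and 4 with a lower mean in Rb-deficient islets. With scaling to the array median 5 of 6 had a higher mean. Their median difference was -0.16, and limma called none after Benjamini-Hochberg adjustment, with 1 at an unadjusted p under 0.05. Without wild type array 2, 8 genes passed the filter and the median was -0.44. The added genes, Crh and Crhbp, passed only through wild type array 1, the one array where they were well above background. The gene with an unadjusted p under 0.05 on all 4 arrays was Crhr2, the receptor of urocortin 3, with log2 signals of -1.38 and -1.92 in Rb-deficient islets and -0.10 and -0.64 in wild type islets. Its groups did not overlap, and the mean was 2.44-fold lower in Rb-deficient islets (limma, adjusted p 0.759, standard error 0.32 on the log2 scale). Sst, the somatostatin gene that marks delta cells, was at 9.31 and 8.87 in Rb-deficient and 9.37 and 9.26 in wild type islets, with overlapping groups. Crhr1, the other receptor of this peptide family, was at -0.91 and -0.90 in Rb-deficient and -1.34 and -1.01 in wild type islets. The probes of the related peptides Ucn and Ucn2 were not well above background on any array.

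Slc30a8 on chromosome 15 had log2 signals of 6.55 and 6.63 in Rb-deficient islets, against 6.20 and 6.41 in wild type islets. Both Rb-deficient arrays were above both wild type arrays, by as little as 0.14. The mean was 6.59 ± 0.05 in Rb-deficient and 6.30 ± 0.15 in wild type islets (SD, n = 2 each), 1.22-fold higher, with a limma interval from 0.84-fold to 1.76-fold. The adjusted p was 0.863 (limma, Benjamini-Hochberg).

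Of the other zinc transporters and metallothioneins, 22 of 24 were tested. A higher mean in Rb-deficient islets was found for 6 and a lower one for 16, with a median of -0.09, close to that of all genes. With scaling to the array median, 20 of 22 had a higher mean. Slc30a5 and Slc30a7, which supply zinc to the secretory pathway, differed by 0.13 and -0.20 on the log2 scale with overlapping groups, and the dimmer probe of Slc30a5 differed by -0.29. The genes of this list with an unadjusted p under 0.05 were Slc39a5 and Slc30a2, both lower and neither called. Slc39a5, a zinc importer of the plasma membrane, had log2 signals of -0.99 and -2.40 in Rb-deficient and 0.43 and 0.25 in wild type islets, a 4.10-fold lower mean (limma, adjusted p 0.790). The median of the acinar list was -0.50 and -1.40 from the wild type mean on Rb-deficient arrays 1 and 2, also lower on array 2, and its part in the value of Slc39a5 was not tested.

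Gjd2 on chromosome 2 had log2 signals of 3.28 and 3.17 in Rb-deficient islets, against 2.60 and 3.05 in wild type islets. Both Rb-deficient arrays were above both wild type arrays, and wild type array 1 stood lowest. The mean was 3.23 ± 0.08 in Rb-deficient and 2.83 ± 0.32 in wild type islets (SD, n = 2 each), 1.32-fold higher, with a limma interval from 0.83-fold to 2.11-fold and an adjusted p of 0.863. The log2 difference was 0.40, and it was 0.17 without wild type array 1 and 0.62 without wild type array 2.

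Connexins of other cells were measured beside it, and 12 of 21 connexin and related genes were tested. Of these 6 had a higher and 6 a lower mean in Rb-deficient islets, with a median of 0.02, and 8 of 12 had a higher one with scaling to the array median. The median was 0.19 without Rb-deficient array 1, -0.14 without Rb-deficient array 2 and -1.13 without wild type array 2. In that last setting 19 genes were tested, and those added passed the filter through wild type array 1 alone. The 3 with an unadjusted p under 0.05 with all 4 arrays were all lower and none was called. Gjb1, a connexin of exocrine and liver cells, was at 0.72 and 0.23 in Rb-deficient and 1.70 and 1.24 in wild type islets, a 1.99-fold lower mean (limma, Benjamini-Hochberg adjusted p 0.819). Gjb2 was 2.61-fold lower, with -1.36 and -2.44 in Rb-deficient and -0.23 and -0.79 in wild type islets. The third, Gjc3, was not well above background on either Rb-deficient array. Gja1, which was not well above background on wild type array 1, and Gjc1, both connexins of many non-endocrine cells, had higher means by 0.80 and 0.59 on the log2 scale, with unadjusted limma p values of 0.142 and 0.162.

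Papss2 on chromosome 19 encodes an enzyme that makes the universal sulfate donor, PAPS. Its brighter probe had log2 signals of 6.62 and 6.44 in Rb-deficient islets, against 6.38 and 6.18 in wild type islets, and the groups were apart by 0.06. The dimmer probe had 1.31 and 1.17 in Rb-deficient and 0.83 and 1.15 in wild type islets. Both probes thus placed both Rb-deficient arrays above both wild type arrays, and both gave a 1.19-fold higher mean. The probes differed in the order of the wild type arrays. For the brighter probe the limma interval ran from 0.81-fold to 1.75-fold and the adjusted p was 0.863. The related Papss1 differed by 0.23 on the log2 scale with overlapping groups. Of the 26 tested genes of sulfate transport and sulfation 16 had a higher and 10 a lower mean, with a median of 0.08, and 23 had a higher one with scaling to the array median. Limma called none, and Chst2, a sulfotransferase acting on sugars, was the one with an unadjusted p under 0.05, 2.08-fold lower.

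Syt13 on chromosome 2 encodes an atypical synaptotagmin that lacks the residues with which its relatives bind calcium. It had log2 signals of 7.20 and 7.09 in Rb-deficient islets, against 7.25 and 7.36 in wild type islets. Both Rb-deficient arrays were below both wild type arrays, by as little as 0.06. The mean was 7.14 ± 0.08 in Rb-deficient and 7.31 ± 0.08 in wild type islets (SD, n = 2 each), 1.12-fold lower, with a limma interval from 0.63-fold to 1.27-fold and an adjusted p of 0.868. Scaling to the array median shifted every gene's difference by the same amount, and the log2 difference of Syt13 was then 0.27, where the median over all genes was 0.37. Relative to the median of all genes it was -0.10 under both scalings.

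Of 22 synaptotagmins and related calcium sensors 18 were tested, 7 with a higher and 11 with a lower mean in Rb-deficient islets and a median of -0.17. With scaling to the array median 14 of 18 had a higher mean. Limma called none with scaling to the 75th percentile and 2 with scaling to the median, where it called 480 of all 26379 genes. Syt9 was at -0.99 and -0.65 in Rb-deficient and -2.47 and -1.84 in wild type islets, a 2.53-fold higher mean (limma, Benjamini-Hochberg adjusted p 0.704). The genes with a lower mean and an unadjusted p under 0.05 were Syt16, with a difference of -0.98, and Sytl2. Sytl2, which encodes a granule-docking protein, had a probe not well above background on either Rb-deficient array. Syt7, a calcium sensor of insulin release, differed by -0.21 and Syt4 by 0.34 on the log2 scale, both with overlapping groups.

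**Figure D2:**
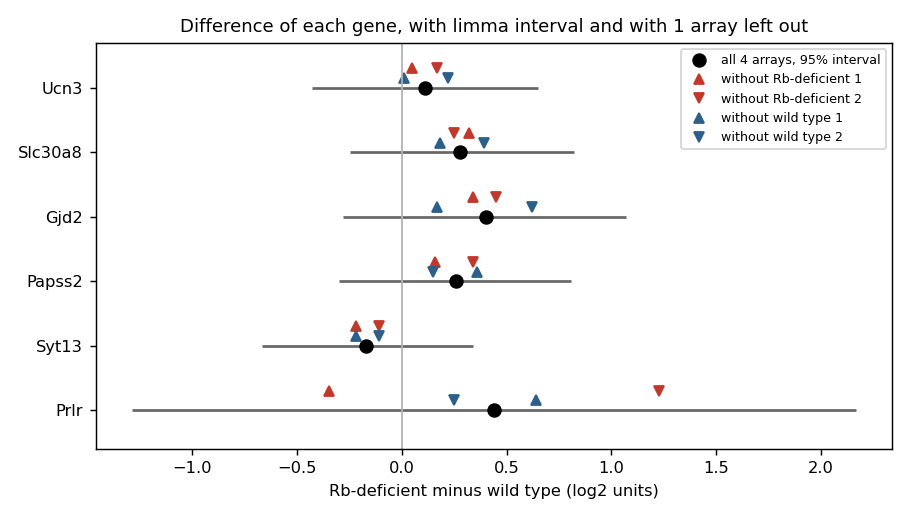
Black points are Rb-deficient minus wild type differences in log2 units over all 4 arrays, and grey lines are 95% intervals of limma. Triangles give the difference with 1 array left out, red for an Rb-deficient and blue for a wild type array. All 6 intervals include 0, and for Prlr alone does leaving out an array turn the direction.

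Prlr on chromosome 15 was the one gene of the 6 that varied strongly among mice of 1 genotype. Its brightest probe had log2 signals of 6.24 and 4.67 in Rb-deficient islets, against 5.21 and 4.82 in wild type islets. Rb-deficient array 1 was the highest of the 4 arrays and Rb-deficient array 2 the lowest. The means were 5.45 ± 1.11 in Rb-deficient and 5.01 ± 0.27 in wild type islets (SD, n = 2 each), and limma gave a difference of 0.44 with a standard error of 0.61 and an adjusted p of 0.884. The interval ran from 0.41-fold to 4.50-fold. The difference was -0.35 without Rb-deficient array 1 and 1.23 without Rb-deficient array 2, so that its direction rested on 1 mouse.

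The other probes of Prlr gave the same order at the top. The second probe of the same transcript was at 3.35 and 1.69 in Rb-deficient and 2.28 and 1.95 in wild type islets. The probe designed to a different transcript of the gene was at 0.94 and -1.09 in Rb-deficient and -0.25 and -1.30 in wild type islets. Rb-deficient array 1 exceeded Rb-deficient array 2 by 1.58, 1.66 and 2.03 on the log2 scale in the 3 probes. Wild type array 1 exceeded wild type array 2 by 0.39, 0.33 and 1.04. A gap between the Rb-deficient arrays at least as large as that of the brightest probe was found in 6.63% of all genes tested. For the other 5 genes it was found in 67.8% to 85.5% of all genes. Wild type array 1, the one with Y-linked signal, had neither the highest nor the lowest Prlr value in any probe. With Y-linked signal on a single array, sex and mouse cannot be told apart, and the part of sex in the Prlr values was not tested.

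Of the prolactin receptor pathway 21 of 22 genes were tested, 12 with a higher and 9 with a lower mean in Rb-deficient islets and a median of 0.09. With scaling to the array median 18 of 21 had a higher mean. None was called with either scaling. Jak2 was at -0.86 and -0.78 in Rb-deficient and -0.85 and -0.71 in wild type islets, and Ghr, the related growth hormone receptor, at 3.41 and 3.58 in Rb-deficient and 3.42 and 3.56 in wild type islets. The groups of both overlapped, and the dimmer probe of Jak2 differed by -0.56. Stat5a and Stat5b differed by -0.17 and 0.14 on the log2 scale with overlapping groups, and the dimmer probe of Stat5a differed by 0.07. By these brighter probes, none of the 3 signalling genes had a gap between the Rb-deficient arrays like that of Prlr.

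Genes known as targets of Stat5 or prolactin differed in their order across the arrays. Cish, a feedback inhibitor induced by Stat5, was at 0.62 and 2.26 in Rb-deficient and 1.54 and 3.46 in wild type islets. Its lowest value was thus on the array where Prlr was highest. Socs2, another such inhibitor, was at 0.86 and 0.89 in Rb-deficient and 0.39 and 1.43 in wild type islets. Tph2, an enzyme of serotonin synthesis, was at -2.54 and -4.48 in Rb-deficient and -3.81 and -3.39 in wild type islets. Like the brightest probe of Prlr, it was highest on Rb-deficient array 1 and lowest on Rb-deficient array 2. The brightest probe of Tph1, the enzyme that rises in islets of pregnant mice, was well above background on 1 array of each group, Rb-deficient array 1 and wild type array 2, at -4.23 and -4.04.

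The list members with an unadjusted p under 0.05 had other roles as well. Foxm1, a transcription factor of the division cycle that is also needed for beta cell expansion in pregnancy, was at -2.44 and -1.81 in Rb-deficient and -3.26 and -3.66 in wild type islets, a 2.53-fold higher mean (limma, Benjamini-Hochberg adjusted p 0.726). Igf1, a growth factor, was 2.94-fold lower, with 0.03 and -0.85 in Rb-deficient and 1.24 and 1.06 in wild type islets. Tnfrsf11b, which encodes osteoprotegerin, was 2.25-fold lower.

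**Figure D3:**
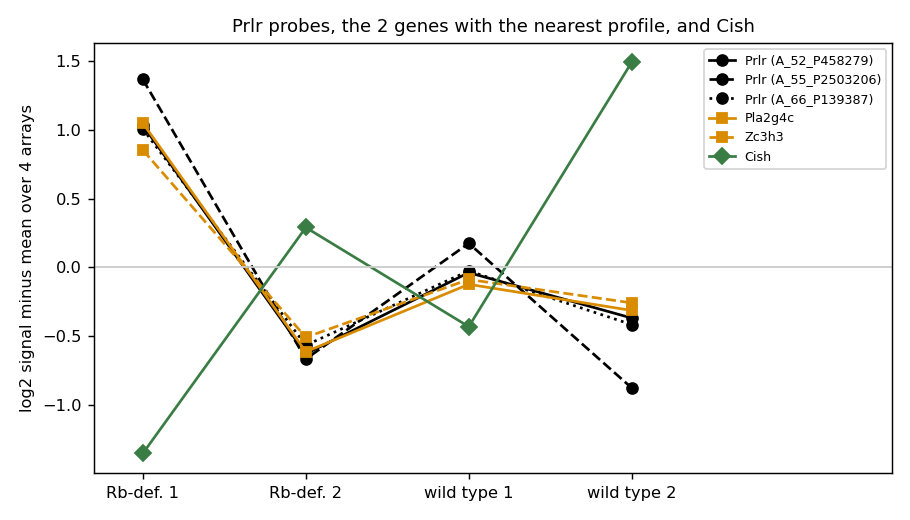
The vertical axis is the log2 signal of a probe minus its mean over the 4 arrays named on the horizontal axis, and lines only join the values of 1 probe. The 3 Prlr probes (black) and the 2 genes of nearest profile, Pla2g4c and Zc3h3 (orange), are highest on Rb-deficient array 1, where Cish (green) is lowest.

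The genes with a profile most like that of Prlr were sought among 15002 named genes with signal on all arrays, as the smallest distance between values centred over the 4 arrays. Pla2g4c, a phospholipase gene, came first at a distance of 0.15, with -2.55 and -4.21 in Rb-deficient and -3.72 and -3.91 in wild type islets. Zc3h3, a zinc finger protein gene, followed at 0.24, with 4.78 and 3.42 in Rb-deficient and 3.84 and 3.67 in wild type islets. With 4 arrays and this many candidates, near profiles occur readily, and the distances are a description. The other 5 genes spanned less than 1 log2 unit over the arrays, and no such search was made for them.

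Other genes of mature beta cells set the 6 in context, from a list of 24 that were all tested. Of these 15 had a higher and 9 a lower mean in Rb-deficient islets, with a median of 0.12. With scaling to the array median, which shifts every gene alike, all 24 had a higher mean. Their median was then 0.55, where that of all genes was 0.37. None was called by limma with either scaling, or had an unadjusted p under 0.05 with scaling to the 75th percentile. The insulin genes Ins1 and Ins2 had lower means by 1.17-fold and 1.16-fold. Ins1 was at 9.81 and 9.36 in Rb-deficient and 9.91 and 9.72 in wild type islets, and Ins2 at 10.40 and 9.89 in Rb-deficient and 10.45 and 10.27 in wild type islets. Both were lowest on Rb-deficient array 2, as was the brightest probe of Prlr, while Slc30a8 was highest there. Mafa, a transcription factor that appears as beta cells mature, was at 2.36 and 2.38 in Rb-deficient and 2.21 and 2.32 in wild type islets, a 1.08-fold higher mean with a standard error of 0.18 on the log2 scale (limma, adjusted p 0.897). By array, this list stood at 0.17 and -0.13 against the wild type mean on Rb-deficient arrays 1 and 2, and without Rb-deficient array 1 its median was -0.13.

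Of 14 genes of immature beta cells 13 were tested, 6 with a higher and 7 with a lower mean in Rb-deficient islets and a median of -0.16. The 13 include Pyy, which is also a hormone of PP cells. With scaling to the array median 8 of 13 had a higher mean. None was called with either scaling. Dlk1, a Notch ligand homologue, was the one with an unadjusted p under 0.05, at -0.60 and -1.0 in Rb-deficient and -2.0 and -2.01 in wild type islets, a 2.31-fold higher mean (limma, Benjamini-Hochberg adjusted p 0.591). Of the alpha cell markers 5 of 7 had a lower mean in Rb-deficient islets, with a median of -0.76, and their part in the values of this list was not tested. By array the immature list stood at -0.48 and 0.17 on Rb-deficient arrays 1 and 2, on different sides of the wild type mean, and its median was 0.28 with scaling to the array median.

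**Figure D4:**
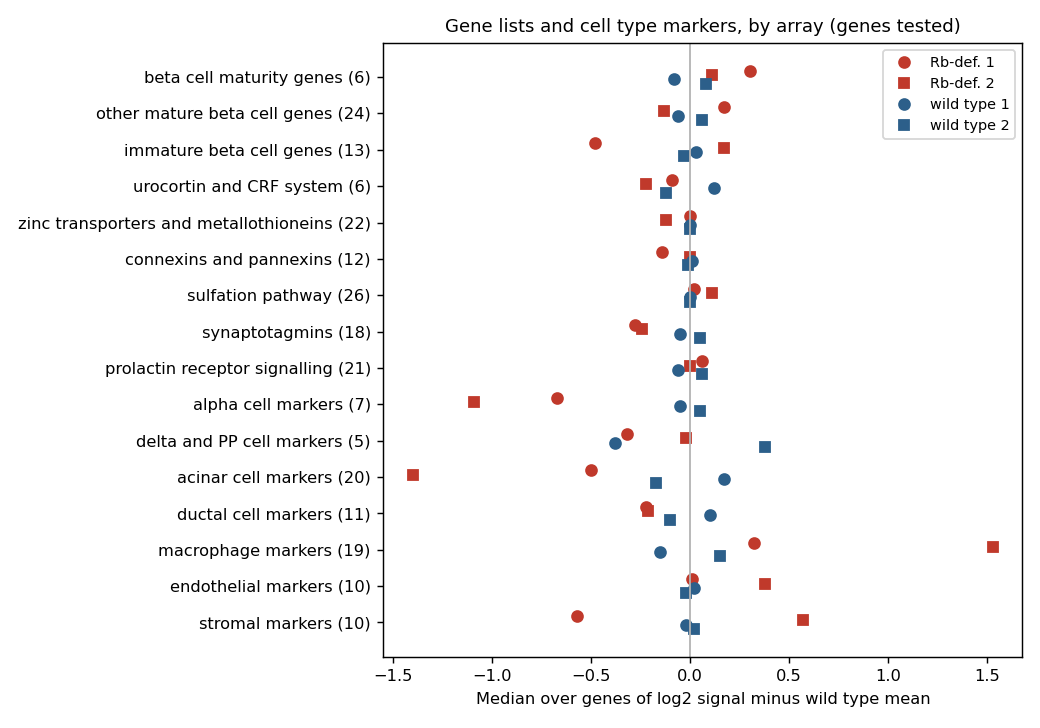
For each gene list, with the number of genes tested in brackets, points give the median over its genes of log2 signal minus the wild type mean, by array. The 6 beta cell maturity genes stand at 0.30 and 0.11 on Rb-deficient arrays 1 and 2, where the acinar markers stand at -0.50 and -1.40 and the macrophage markers at 0.32 and 1.53.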

How the data were processed

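Islet RNA of 2 Rb-deficient and 2 wild type mice was measured on 1 Agilent array each, all on 1 slide, so slide could not be a block. The deposited intensity values came from version 12.0.3.1 of Agilent Feature Extraction on a design annotated to mm9, with background subtraction and spatial detrending recorded, per the file headers. They are not scaled between arrays. A deposited value table of 48058 features held the same intensity values times a constant per array, from 1.74 to 2.49, and served as an alternative. Its linear scale is therefore known, while the statistic behind the constants is not. Accessions were matched without versions to RefSeq genes of GRCm38.p6, which named 58.3% of probes.

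Outlier-marked spots and controls were left out. No spot was saturated. For the log2 values, each deposited signal was divided by the 75th percentile of its array's non-control probes. A probe was kept where both arrays of 1 or both groups put it well above background (33846), and the brightest probe stood for a gene. The groups were compared without covariates, two-sided, by lmFit and eBayes of limma 3.58.1 (R 4.3.3) with Benjamini-Hochberg adjustment over 26379 genes at a threshold of 0.05. The fit was tested on simulated data. Over probes in place of genes, limma called 0%. With 2 against 2 arrays an exact permutation test cannot go below 0.333, so none was run, and the number of arrays limits the precision.

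The 6 genes, the gene lists and the rule for named genes (all members, fixed partners, and at most 3 genes of a list in each direction with an unadjusted p under 0.05) were chosen with earlier results of these data known. They describe and do not test. Alternatives were other background correction, normalization, scaling, filters and probe rules, the deposited table, the replicate number as a block, and leaving out each array.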

Additional observations from a re-analysis of the deposited data

How the results depend on the processing

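No member was called under any of the 12 alternatives, and 70 of 72 member differences kept their direction. The exceptions were Syt13 with median scaling (0.27) and Prlr without Rb-deficient array 1. Median scaling also gave 480 called genes (234 higher, 246 lower) and a median of 0.71 for the 6 genes. It raised the median of all genes to 0.37 and gave each member a standard error of 0.55, and the cause of the calls was not tested. Relative to the median of all genes, that of the 6 genes was 0.34 in both. Leaving out 1 array gave differences of 0.01 to 0.22 for Ucn3, 0.18 to 0.39 for Slc30a8, 0.17 to 0.62 for Gjd2, 0.15 to 0.36 for Papss2, -0.22 to -0.11 for Syt13 and -0.35 to 1.23 for Prlr. The median of the 6 genes was then 0.11 (without Rb-deficient array 1) to 0.30, and the count of called genes 0 to 4091. The 4091 arose without wild type array 2, when wild type array 1 with its larger share of probes with signal stood alone and was assumed to vary like the other group, and 4074 of them were lower. The cause was not tested. With the replicate number as a block, 0 genes were called and the Prlr difference was 0.44 with a standard error of 0.39. Deviations of same-numbered arrays correlated at 0.295 over genes, which are not independent, and nothing in the labels pairs the mice. Normexp was run on the median spot signal, since the files hold no mean spot signal. Of 180 medians of the other lists under these alternatives, 137 moved by less than the spread between arrays.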

Other observations

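Aldh1a3, Ppy and Pyy, chosen after their values were seen, varied more between mice of a group than between groups. Aldh1a3, a retinoic acid enzyme induced in failing beta cells, was at -0.18 and 2.33 in Rb-deficient and 3.18 and -0.19 in wild type islets. Ppy and Pyy, hormones of PP cells, were at 6.30 and 9.28 and at 5.70 and 8.64 in Rb-deficient islets, against 7.36 and 8.18 and 6.42 and 7.13 in wild type islets. Both were highest on Rb-deficient array 2, where the brightest probe of Prlr was lowest. Ghrl, the ghrelin gene, also chosen with its values known, was at -3.46 and -4.31 in Rb-deficient and -2.12 and 0.92 in wild type islets. Its groups did not overlap, which held in either direction for 36.0% of all genes. Its mean was lower by 3.29 on the log2 scale in Rb-deficient islets (limma, Benjamini-Hochberg adjusted p 0.863). Ghrl also varied between mice of a group, with an SD of 0.6 in Rb-deficient and 2.15 in wild type islets (n = 2 each).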
